A study of Homo sapiens with 22 samples.

Results

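The genes examined here encode proteins that myeloid cells pack into cytoplasmic granules: ELANE, PRTN3, AZU1, MPO, CTSG, RNASE2, RNASE3, DEFA3, LYZ and SRGN. They were taken by gene symbol, and all 10 had a row among the 20411 protein-coding genes of the mRNA tables of 2 acute myeloid leukaemia (AML) cell lines. MOLM-13 is a human AML line with a KMT2A fusion, and NB4 is a human acute promyelocytic leukaemia line with a PML-RARA fusion. Cells of each line, labelled wild type, received DMSO, the solvent control, or 2 μM FP54, a compound that directs the RNA demethylase FTO to degradation, for 48 h. Polyadenylated RNA was sequenced from 3 libraries per treatment and line, 12 in all. The question addressed is how mRNA levels of granule proteins differed between treated and control cells of each line. Nothing in the sources says whether the 3 libraries of a group came from separate cultures, so p-values measure the spread between these libraries, which may be technical.

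Neutrophil granules form in waves. Azurophil granules are filled at the promyelocyte stage with myeloperoxidase, serine proteases and defensins, and specific and gelatinase granules follow later in maturation. Serglycin, a proteoglycan, holds many of these cationic proteins on its sulfated chains, and PML-RARA leukaemia is known for cells loaded with azurophil granules.

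The libraries held 5836589 to 19207544 reads on genes in MOLM-13 and 10602362 to 22349893 in NB4, as recovered from RPKM (reads scaled to gene length and to the mapped reads of the library). FP54 replicate 2 was the shallowest MOLM-13 library, and in NB4 the 3 FP54 libraries, at 10602362 to 13079357 reads, were shallower than the 3 DMSO libraries. Of 8 myeloid marker genes, 6 had a mean of at least 1 RPKM in every group, with summed levels of 421 to 460 RPKM with DMSO and 642 to 815 with FP54 in MOLM-13, and of 223 to 276 and 649 to 693 in NB4. Most of the rise was CD68 in MOLM-13 (mean 192 to 418 RPKM) and ANPEP in NB4 (136 to 553 RPKM). CSF3R and PTPRC also rose in both lines, and CD33 changed little in either. SPI1 went from 155 to 173 RPKM in MOLM-13 and from 80.2 to 60.5 RPKM in NB4. All 8 erythroid and all 5 fibroblast markers had a mean under 1 RPKM in every group, whereas 1 of 5 T cell, 2 of 5 B cell and 3 of 6 epithelial markers reached it in NB4, and 1 of 6 epithelial markers (2 with FP54) in MOLM-13. In NB4 the T cell list summed to 6.14 to 7.11 RPKM with DMSO and 11.2 to 11.7 with FP54, the B cell list to 4.26 to 6.36 and 7.29 to 7.46, and the epithelial list to 20.1 to 22 and 22.3 to 24.3, and their part in the results was not tested. HOXA9, HOXA10 and MEIS1, which KMT2A fusions keep high, all had a mean of at least 1 RPKM in MOLM-13, against 1 of 3 in NB4. With DMSO, HOXA9 had a mean of 21.3 RPKM in MOLM-13 and 0.234 in NB4, and MEIS1 6.36 and 0.157. HOXA10 went the other way, at 7.30 RPKM in MOLM-13 and 13.2 in NB4. In NB4, 416 olfactory receptor genes, which blood cells are not known to use, summed to 0.70 to 1.55 RPKM with DMSO and 20.6 to 22.8 RPKM with FP54, whereas in MOLM-13 they summed to 1.61 to 1.81 and 1.97 to 3.46 RPKM. The mean of such a gene in the NB4 FP54 libraries was 0.0496 to 0.0549 RPKM, a level that only the lowest members come near, and its part in the results below was measured by subtraction.

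With FP54, MPO, CTSG, RNASE2 and RNASE3 mRNA fell in both lines. PRTN3, AZU1, SRGN and DEFA3 fell in NB4 and were not called in MOLM-13, and LYZ was not called in either line. Called genes are those past the cutoffs of the study, a limma p under 0.01 together with a change of 0.5 or more either way on log2(RPKM + 0.1). In MOLM-13, 4 of 9 members tested were called lower, where 9.04% of 9710 genes tested were called lower and 9.3% higher. In NB4, 8 of 9 members tested were called lower, where 10.7% of 9853 genes were called lower and 18.6% higher, and no member was called higher in either line. The members were chosen with earlier results of these data known. Member counts set beside all genes, here and below, therefore describe the set and are no independent test. The split of all NB4 calls, 1050 lower and 1834 higher, became 2008 and 1184 with median-ratio scaling, which moved the median log2 fold change of all genes from 0.07 to −0.13, and 1363 and 1280 with quantile normalization; the NB4 members kept their direction under both. RNASE3 and DEFA3 passed the filter of 1 RPKM in NB4 only through their DMSO level, and of the 7 members with a mean of at least 1 RPKM under both treatments 6 were called lower, beside 10.8% of 9424 such genes. All 3 FP54 values lay below all 3 DMSO values for 4 of 10 members in MOLM-13 (17% of genes tested) and for 8 of 10 in NB4 (26.2%). The median log2 fold change of the members tested was −0.25 in MOLM-13, beside 0.003 over all genes tested. In NB4 it was −0.96 over the 7 members at 1 RPKM or more under both treatments, beside 0.05 over all such genes, and −1.93 with RNASE3 and DEFA3 included. In bulk RNA, fewer cells that express a gene and less RNA per cell cannot be told apart.

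**Figure D1:**
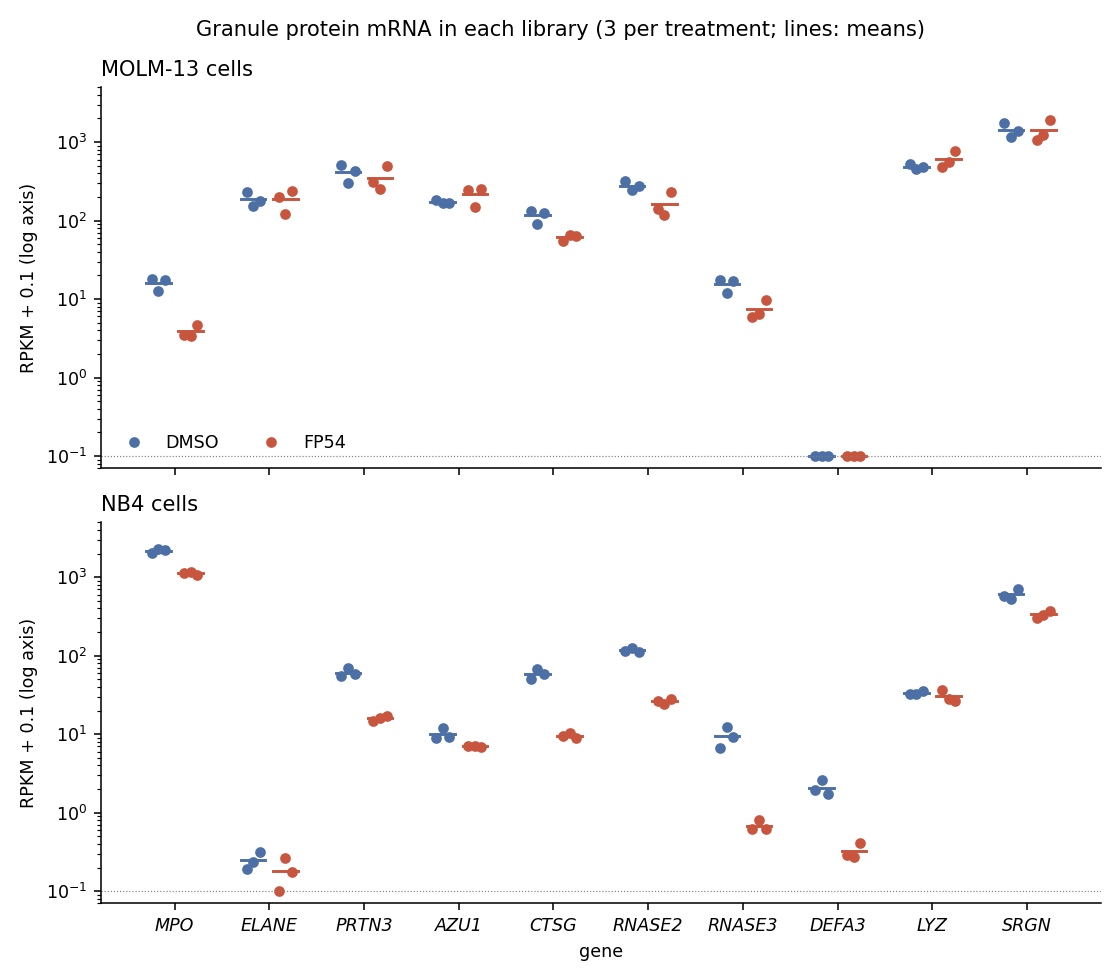
RPKM plus 0.1 on a log axis for the 10 granule genes in each library of MOLM-13 (top) and NB4 (bottom), DMSO in blue and FP54 in red, with group means as lines and a dotted line at a value of 0. In NB4 all 3 FP54 points lie below all 3 DMSO points for 8 of 10 genes, and in MOLM-13 for 4.

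The lines differed in their granule profile with the vehicle DMSO. In MOLM-13 with DMSO, SRGN was the most abundant member at 1427 ± 289 RPKM (SD, n = 3) and ranked 12 of 20411 genes, followed by LYZ, PRTN3, RNASE2, ELANE, AZU1 and CTSG, then MPO and RNASE3, and DEFA3 was listed at 0. The ranges of LYZ and PRTN3, PRTN3 and RNASE2, ELANE and AZU1, and MPO and RNASE3 overlapped between libraries. Within every one of these libraries, however, LYZ was above PRTN3, PRTN3 above RNASE2 and MPO above RNASE3, whereas ELANE and AZU1 changed order. In NB4 with DMSO, MPO led at 2170 ± 119 RPKM and ranked 7, followed by SRGN, RNASE2, PRTN3, CTSG, LYZ, AZU1, RNASE3, DEFA3 and ELANE, with overlapping ranges for PRTN3 and CTSG and for AZU1 and RNASE3. The levels of the lines are set side by side without a test, since line, table and normalization cannot be told apart.

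The 10 genes together took 0.398% ± 0.0648 (SD, n = 3) of the reads on genes in MOLM-13 with DMSO and 0.395% ± 0.108 with FP54. In NB4 the share was 1.07% ± 0.0563 with DMSO and 0.546% ± 0.0132 with FP54. MPO alone made up 0.960% ± 0.0528 and 0.494% ± 0.0149 of the NB4 reads, and the other 9 genes 0.105% ± 0.0104 and 0.0523% ± 0.00298. The shares of the 10 genes did not overlap between treatments in NB4 and overlapped in MOLM-13.

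MPO encodes myeloperoxidase, the heme enzyme that makes hypochlorous acid and the classical marker of the azurophil granule. In MOLM-13 the DMSO libraries had 18.1, 12.8 and 17.4 RPKM and the FP54 libraries 3.43, 3.29 and 4.64 RPKM. Every treated library lay below every control, and the fitted log2 fold change was −2.06 (SE 0.19, limma adjusted p = 0.000985), to 24.0% of the DMSO level, the 15th lowest of 9710 genes. In NB4 the DMSO libraries had 2036, 2263 and 2211 RPKM and the FP54 libraries 1116, 1149 and 1082 RPKM. The groups did not overlap, and MPO remained the most abundant member with FP54, at 51.5% of the DMSO level and rank 18 of all genes (log2 fold change −0.96, SE 0.09, limma adjusted p = 1.28e-05). Of the 8 members tested in both lines, only MPO had a positive interaction (NB4 minus MOLM-13), at 1.10 (SE 0.21, limma adjusted p = 0.00268).

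RNASE2 and RNASE3 encode the eosinophil-derived neurotoxin and the eosinophil cationic protein, paired secretory ribonucleases that arose by gene duplication and lie near each other on chromosome 14 (hg38, chr14:20955487-20956436 and chr14:20891385-20892348, plus strand). Each has 2 exons, and their canonical transcripts were identical at 637 of 717 aligned bases (88.8%). Neither shared a stretch of 80 bases, the read length, with the canonical transcript of any other protein-coding gene, and other transcripts were not searched. Their upstream sequences were also alike, with 192 of 199 aligned bases identical (96.5%) and 51 gapped positions in the 250 bases before the start. By the same measure, which leaves gapped positions out, the other pairs of the 5 member promoters available had 69.4% to 80.4%. The last 150 bases before the RefSeq start are shown because the pair fell together (GRCh38.p14, plus strand, chr14:20955337-20955486 and chr14:20891235-20891384). Capitals mark matches on either strand to TTGCNNAA, letters of a C/EBP site, AACNG, the core of a MYB site, GAGGAAG, a PU.1-type ETS site, and TATAA.
RNASE2: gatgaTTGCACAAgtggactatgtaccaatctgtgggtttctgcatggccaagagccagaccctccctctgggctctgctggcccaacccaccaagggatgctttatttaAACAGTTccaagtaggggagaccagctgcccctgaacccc
RNASE3: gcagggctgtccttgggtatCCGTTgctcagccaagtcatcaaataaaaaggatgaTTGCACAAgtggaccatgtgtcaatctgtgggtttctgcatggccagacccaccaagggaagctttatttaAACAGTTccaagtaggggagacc
Both hold TTGCACAA, 145 to 138 bases upstream in RNASE2 and 94 to 87 in RNASE3, and both hold overlapping AACAG and CAGTT letters close to the start. TTGCNNAA was present in the 250 upstream bases of 9.13% of 27305 RefSeq promoters and AACNG in 70.6%. The motifs were chosen after these upstream sequences had been read, so the matches are letters in a window and support nothing, and no binding was measured.

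In MOLM-13, RNASE2 had 317, 249 and 272 RPKM with DMSO and 140, 116 and 229 RPKM with FP54. The highest treated library, replicate 3, was close below the lowest control, and the log2 fold change was −0.84 (SE 0.23, limma adjusted p = 0.0297). This call, which goes by the unadjusted p, was lost without DMSO replicate 1 (−0.75, limma adjusted p = 0.0839), without FP54 replicate 1 (−0.77, limma adjusted p = 0.127) and without FP54 replicate 2 (−0.64, limma adjusted p = 0.0570). Without DMSO replicate 3 the call was kept, though the limma adjusted p was 0.0820 there (−0.86). In NB4, RNASE2 had 113, 126 and 112 RPKM with DMSO and 26.1, 24.5 and 28.2 RPKM with FP54. The groups stood far apart, at −2.16 on the log2 scale (SE 0.09, limma adjusted p = 7.62e-08), to 22.4% of control.

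RNASE3 had 17.3, 11.9 and 16.7 RPKM with DMSO and 5.89, 6.31 and 9.63 RPKM with FP54 in MOLM-13, with no overlap (log2 fold change −1.08, SE 0.22, limma adjusted p = 0.0103). The NB4 libraries had 6.66, 12.2 and 9.21 RPKM with DMSO, from 101 to 191 reads, and 0.514, 0.702 and 0.521 RPKM with FP54, from 4 to 6 reads. This was a log2 fold change of −3.77 (SE 0.20, limma adjusted p = 3.64e-07), the second lowest of 9853 genes tested, and −3.89 after the olfactory receptor level was subtracted. With pseudocounts of 0.01 and 1 the value was −3.96 and −2.68, and with quantile normalization −4.87. Within a library, the RNASE2 to RNASE3 ratio was 17.0, 10.3 and 12.2 with DMSO and 50.7, 34.8 and 54.0 with FP54 in NB4, and 18.3, 20.9 and 16.3 against 23.7, 18.4 and 23.8 in MOLM-13. The paralogs thus changed unequally in NB4, where the ratios did not overlap, and the ratios overlapped in MOLM-13. Of 6 other RNase A family genes listed, RNASE6 alone was tested and was called in neither line, at −0.07 in MOLM-13 (limma adjusted p = 0.774) and 0.16 in NB4 (limma adjusted p = 0.575). RNH1, the cytosolic inhibitor of these ribonucleases and no family member, was not called either, at 0.41 (limma adjusted p = 0.0928) and −0.03 (limma adjusted p = 0.849).

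AZU1, PRTN3 and ELANE lie in a row on the plus strand of chromosome 19 (hg38, chr19:825097-832018, chr19:840999-848175 and chr19:851014-856247), each with 5 exons. ELANE encodes neutrophil elastase and PRTN3 proteinase 3, both active serine proteases, whereas AZU1 encodes azurocidin, a relative that has lost its catalytic activity and is antibacterial. CTSG encodes cathepsin G, a further granule serine protease, on the minus strand of chromosome 14 (chr14:24573518-24576250). The canonical transcripts of AZU1, PRTN3, ELANE and CTSG shared no stretch of 80 bases with the canonical transcript of any other protein-coding gene. The last 150 upstream bases are shown for the 3 protease-family members that the RefSeq promoter table covers (GRCh38.p14: PRTN3 chr19:840849-840998 and AZU1 chr19:827687-827836 on the plus strand, CTSG chr14:24576251-24576400 on the minus strand), with the motifs given for the ribonucleases in capitals. The RefSeq start of AZU1 lies inside the annotated gene span.
PRTN3: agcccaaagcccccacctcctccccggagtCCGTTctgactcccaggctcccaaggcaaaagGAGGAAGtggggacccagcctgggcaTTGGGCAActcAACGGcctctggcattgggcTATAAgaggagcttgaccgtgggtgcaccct
AZU1: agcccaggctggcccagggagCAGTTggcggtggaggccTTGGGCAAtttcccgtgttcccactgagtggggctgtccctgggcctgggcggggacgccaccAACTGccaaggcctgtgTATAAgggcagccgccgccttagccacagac
CTSG: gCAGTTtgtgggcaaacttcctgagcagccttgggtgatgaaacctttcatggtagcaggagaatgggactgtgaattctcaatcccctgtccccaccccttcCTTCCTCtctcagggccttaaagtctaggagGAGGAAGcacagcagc
PRTN3 and AZU1 each hold TTGGGCAA, a match to TTGCNNAA on the opposite strand, and each has TATAA 31 to 27 bases before the start. GAGGAAG is present once upstream of PRTN3 and, counting both strands, at 2 places upstream of CTSG, and in none of the 250 bases before AZU1, RNASE2 or RNASE3. GAGGAAG was present in 11% and TATAA in 19.6% of the 27305 promoters. Of the 5 member promoters, 4 hold TTGCNNAA, 5 AACNG, 2 GAGGAAG and 3 TATAA, the RNASE2 match to TATAA lying outside the bases shown.

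CTSG fell in both lines. In MOLM-13 it had 134, 91.3 and 124 RPKM with DMSO and 55.6, 66.2 and 64.4 RPKM with FP54. The groups did not overlap (log2 fold change −0.89, SE 0.17, limma adjusted p = 0.00807). The NB4 libraries had 49.9, 66.8 and 58.8 RPKM with DMSO and 9.52, 10.2 and 8.78 RPKM with FP54, a drop to 16.4% of control (log2 fold change −2.60, SE 0.11, limma adjusted p = 1.07e-07) and the 7th lowest of 9853 genes.

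PRTN3 had 508, 302 and 430 RPKM with DMSO and 311, 255 and 495 RPKM with FP54 in MOLM-13. The groups overlapped, with treated replicate 3 close to the highest control, and the log2 fold change was −0.25 with a 95% interval from −0.82 to 0.32 (limma adjusted p = 0.522). In NB4 it had 55.2, 69.0 and 58.7 RPKM with DMSO and 14.7, 16.0 and 16.9 RPKM with FP54, well apart, at 26.3% of control (log2 fold change −1.93, SE 0.10, limma adjusted p = 3.17e-07).

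AZU1 had 186, 167 and 170 RPKM with DMSO and 245, 149 and 251 RPKM with FP54 in MOLM-13. Treated replicates 1 and 3 lay above all controls and replicate 2, the shallowest library, below them (log2 fold change 0.27, 95% interval −0.17 to 0.71, limma adjusted p = 0.358). Without FP54 replicate 2 the gene was called higher in MOLM-13, at 0.51 (limma adjusted p = 0.0209). In NB4 AZU1 had 8.91, 11.7 and 9.24 RPKM with DMSO and 7.04, 6.90 and 6.70 RPKM with FP54, all lower than controls. The change of −0.52 (SE 0.11, limma adjusted p = 0.00351) was close to the fold cutoff, and the call was lost without DMSO replicate 2 (−0.40) and without FP54 replicate 3 (−0.50).

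ELANE had 228, 154 and 176 RPKM with DMSO and 198, 122 and 240 RPKM with FP54 in MOLM-13. The controls lay within the treated range, with a log2 fold change of −0.03 and a 95% interval from −0.57 to 0.50 (limma adjusted p = 0.938). In NB4 ELANE was not tested, as 2, 3 and 5 reads were recovered with DMSO and 0, 2 and 1 with FP54, at most 0.218 RPKM in any library. Thus the gene that ranked 152 in MOLM-13 was near the limit of counting in NB4, whereas the adjacent PRTN3 had 1263 to 1627 reads in the NB4 controls.

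**Figure D2:**
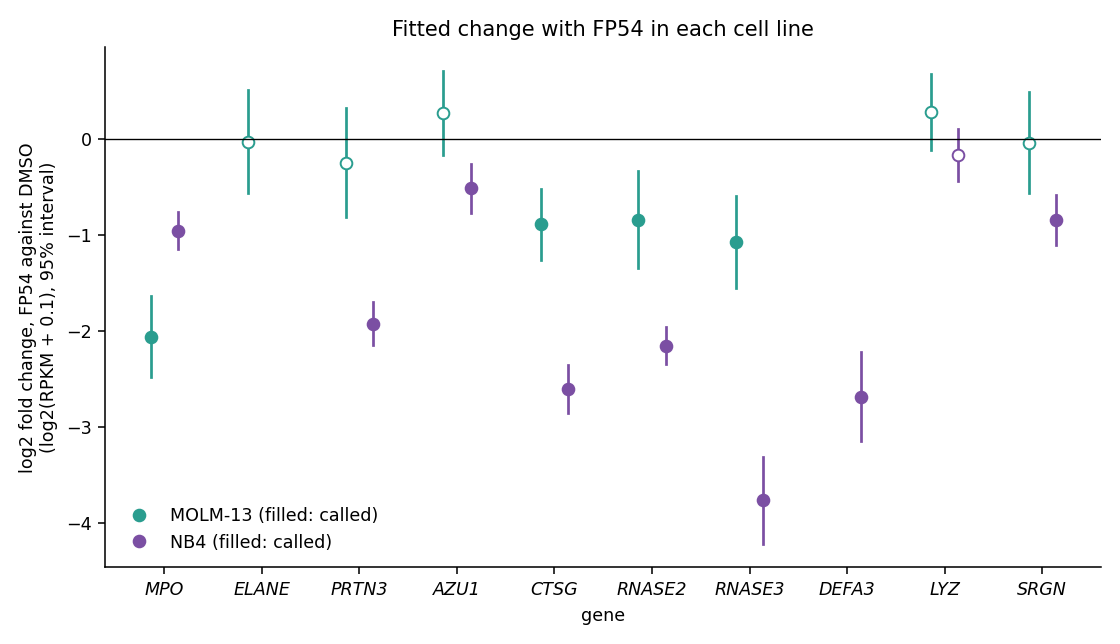
Fitted log2 fold change of FP54 against DMSO on log2(RPKM + 0.1) for each granule gene, with 95% intervals, MOLM-13 in green and NB4 in purple, filled where called. ELANE in NB4 and DEFA3 in MOLM-13 were not tested, and MPO is the only gene with a larger fall in MOLM-13, at −2.06 against −0.96.

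The genes around AZU1, PRTN3 and ELANE were also read out. PLPPR3, a gene of the phospholipid phosphatase-related family on the minus strand 3.14 kb from AZU1, fell in both lines. It had 127, 142 and 176 RPKM with DMSO and 54.0, 71.5 and 63.0 RPKM with FP54 in MOLM-13 (log2 fold change −1.23, SE 0.16, limma adjusted p = 0.00232). In NB4 it had 44.6, 80 and 48.5 RPKM with DMSO and 13.6, 15.3 and 14.7 RPKM with FP54 (−1.93, SE 0.18, limma adjusted p = 1.53e-05). In neither line did the groups overlap, and the difference between the lines was −0.70 (limma adjusted p = 0.102). CFD, which encodes the complement protease factor D, was higher in MOLM-13 (0.61, SE 0.15, limma adjusted p = 0.0207) and had 0.03 in NB4; its exons overlap those of MED16 on the opposite strand, and the strand setting of the counting is not stated. PTBP1, MED16 and R3HDM4 were called in neither line. Within 50 kb of the other members, TSPOAP1, near MPO, was lower in MOLM-13 (−0.63, SE 0.18, limma adjusted p = 0.0332) and had −0.04 in NB4. LPO, the lactoperoxidase gene 1.34 kb from MPO, had −0.68 in MOLM-13 (limma adjusted p = 0.0844), was not called, and was too low to test in NB4. METTL17 near RNASE2, YEATS4 near LYZ, and KIFBP and VPS26A near SRGN were called in neither line. GZMH near CTSG, SLC39A2 near RNASE2 and DEFA5 near DEFA3 were too low to test in both.

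**Figure D3:**
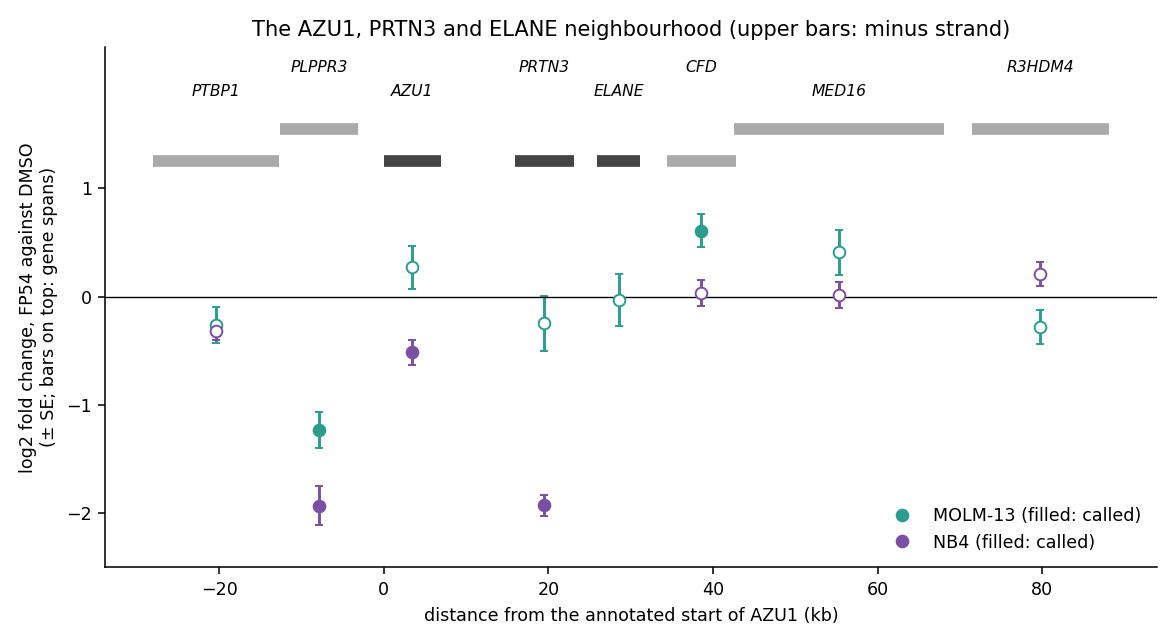
Log2 fold change (± SE) of FP54 against DMSO for the genes around AZU1, PRTN3 and ELANE, plotted by distance from the annotated start of AZU1 in kb, MOLM-13 in green and NB4 in purple, filled where called, with gene spans as bars on top. PLPPR3 was lower in both lines (−1.23 and −1.93) and PRTN3 in NB4 (−1.93), whereas PTBP1, MED16 and R3HDM4 on the flanks were not called.

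DEFA3 encodes neutrophil defensin 3, a small pore-forming antimicrobial peptide, and lies on chromosome 8. It was listed at 0 in all 6 MOLM-13 libraries, which allows up to 0.121 RPKM with DMSO and 0.164 RPKM with FP54, taking 3 reads over each group of 3 libraries. These limits take reads from the whole transcript as counted, and are higher if reads shared with DEFA1 and DEFA1B were left out. In NB4 it had 1.86, 2.47 and 1.63 RPKM with DMSO, from 19, 26 and 18 reads, and 0.191, 0.174 and 0.310 RPKM with FP54, from 1, 1 and 2 reads. Over the 3 libraries, 63 control reads stood against 4 treated reads, which is 11.6% of control per read sequenced, with an exact binomial 95% interval from 3.06% to 31.1% that covers counting error only. The fitted log2 fold change was −2.69 (SE 0.21, limma adjusted p = 4.45e-06). Of its 80-base stretches, 74.9% are shared with DEFA1 and DEFA1B, both listed at 0 in the tables, so the 3 genes cannot be separated with confidence and the level is uncertain.

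LYZ encodes lysozyme, which cleaves bacterial cell wall and is present in all neutrophil granule types and in monocytes. In MOLM-13 it had 529, 459 and 478 RPKM with DMSO and 488, 555 and 761 RPKM with FP54. In NB4 it had 32.5, 32.8 and 35.6 RPKM with DMSO and 36.8, 28.1 and 26.0 RPKM with FP54. The groups overlapped in both lines, with log2 fold changes of 0.28 (95% interval −0.12 to 0.67, limma adjusted p = 0.295) and −0.17 (95% interval −0.44 to 0.10, limma adjusted p = 0.276). Exons of a long non-coding RNA overlap LYZ on the opposite strand.

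SRGN encodes the serglycin core protein. In MOLM-13 it had 1732, 1158 and 1390 RPKM with DMSO and 1057, 1248 and 1939 RPKM with FP54, wholly overlapping (log2 fold change −0.04, 95% interval −0.57 to 0.48, limma adjusted p = 0.918). The NB4 values were 582, 526 and 707 RPKM with DMSO and 306, 335 and 367 RPKM with FP54. The highest treated NB4 library was below the lowest control, at 55.8% of control (log2 fold change −0.84, SE 0.12, limma adjusted p = 0.000211).

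The difference between the lines was tested as an interaction in a single limma model. Of 8 members tested, 5 had a more negative change in NB4, where 3.75% of 8849 genes did, and MPO had a more positive one, as did 10.5% of genes. The 5 include RNASE3, which passed the filter of 1 RPKM in NB4 only through its DMSO level. Over the alternative runs the RNASE3 difference ranged from −3.41 to −1.69. The differences, NB4 minus MOLM-13 on the log2 scale, were −2.69 for RNASE3 (SE 0.33, limma adjusted p = 8.02e-05) and −1.71 for CTSG (SE 0.21, limma adjusted p = 8.62e-05). They were −1.68 for PRTN3 (SE 0.31, limma adjusted p = 0.00196), −1.31 for RNASE2 (SE 0.27, limma adjusted p = 0.00448) and −0.79 for AZU1 (SE 0.24, limma adjusted p = 0.0421). SRGN (−0.80, limma adjusted p = 0.0857) and LYZ (−0.44, limma adjusted p = 0.216) missed the cutoff of 0.05. The AZU1 difference was lost when replicate 1, 2 or 3 of DMSO or replicate 1 or 3 of FP54 was left out of both lines, with limma adjusted p up to 0.158.

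Ratios between members within a library do not depend on how the libraries were scaled. MPO to AZU1 was 0.0977, 0.0766 and 0.103 with DMSO and 0.0140, 0.0220 and 0.0185 with FP54 in MOLM-13, and 228, 193 and 239 against 158, 167 and 162 in NB4. PRTN3 to AZU1 was 6.20, 5.89 and 6.35 against 2.09, 2.32 and 2.53 in NB4, and overlapped in MOLM-13 at 2.36 ± 0.485 and 1.65 ± 0.353. The neighbours PRTN3 and AZU1 thus changed unequally in NB4. CTSG to PRTN3 was lower in every treated library of both lines, at 0.285 ± 0.020 and 0.189 ± 0.0652 in MOLM-13 and at 0.958 ± 0.0498 and 0.60 ± 0.0708 in NB4. RNASE2 to LYZ was 0.570 ± 0.0290 and 0.265 ± 0.0491 in MOLM-13 and 3.49 ± 0.351 and 0.887 ± 0.186 in NB4. PRTN3 to SRGN overlapped in MOLM-13 and was 0.103 ± 0.0250 against 0.0474 ± 0.00113 in NB4. In contrast, MPO to SRGN in NB4 overlapped at 3.64 ± 0.599 and 3.34 ± 0.360, whereas in MOLM-13 it was 0.0113 ± 0.00108 and 0.00276 ± 0.000436. The smallest p that an exact two-sided permutation test of 3 against 3 can give is 0.1 (0.16 after adjustment over the 16 ratios), which every ratio without overlap reached.

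**Figure D4:**
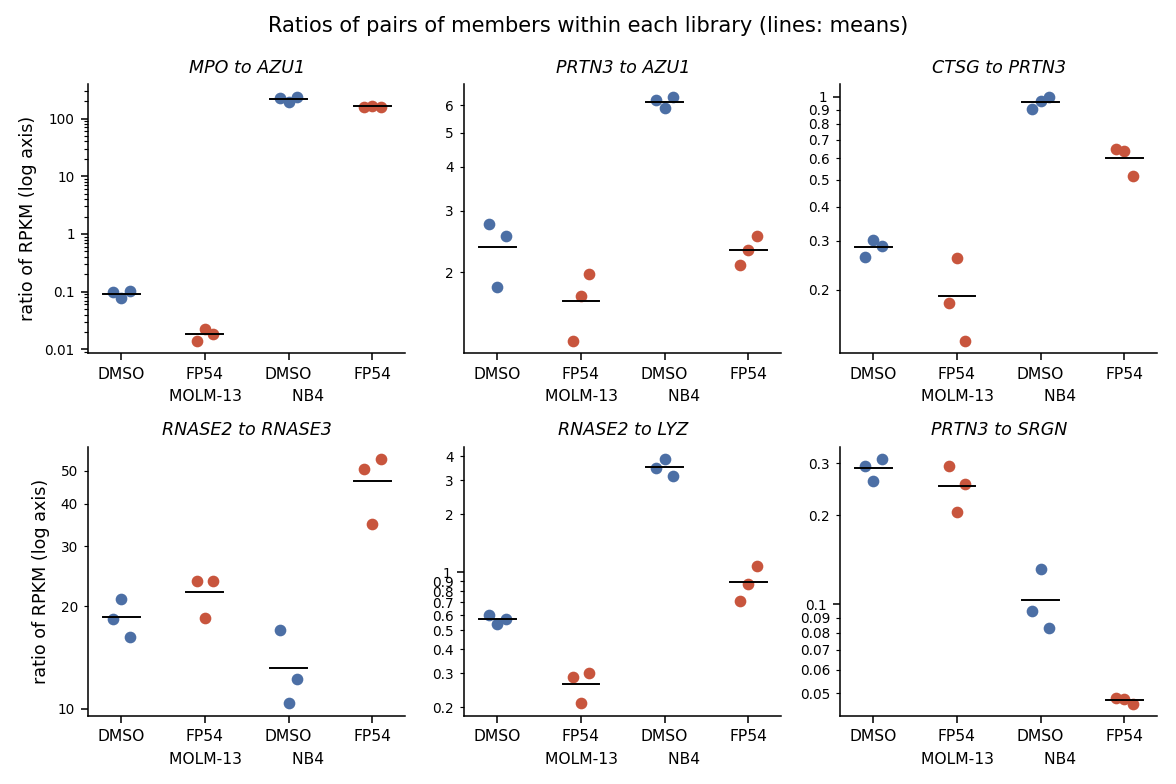
Ratio of the RPKM of pairs of granule genes within each library, on log axes, DMSO in blue and FP54 in red, MOLM-13 on the left and NB4 on the right of each panel, with means as lines. MPO to AZU1, CTSG to PRTN3 and RNASE2 to LYZ did not overlap between treatments in either line, whereas PRTN3 to AZU1 and RNASE2 to RNASE3 separated in NB4 and overlapped in MOLM-13.

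Other granule genes moved in both directions. Counts in this and the following lists stand beside 9.04% of all genes called lower and 9.3% higher in MOLM-13. In NB4 these shares were 10.7% and 18.6%. No list was tested against them. Of 10 other azurophil genes, 7 were tested in MOLM-13, where CD68, a lysosomal membrane protein, rose (1.11, SE 0.15, limma adjusted p = 0.00257) along with CFD, and none was called lower by limma, with 1 (PRSS57, −0.51) lower at an unadjusted p under 0.05. In NB4, 6 were tested, CD68 rose from 9.44 to 18.8 RPKM (0.99, SE 0.12, limma adjusted p = 7.17e-05) and PRSS57, neutrophil serine protease 4, fell from 68.3 to 38.7 RPKM (−0.81, SE 0.10, limma adjusted p = 9.37e-05). Without FP54 replicate 1 only 1 gene of this list was called in MOLM-13. Of 20 specific and gelatinase granule genes, 7 were tested in MOLM-13 and 5 in NB4. MMP9, gelatinase B, rose in both lines, from 0.843 to 4.06 RPKM in MOLM-13 (2.14, SE 0.18, limma adjusted p = 0.000985) and from 196 to 468 RPKM in NB4 (1.27, SE 0.12, limma adjusted p = 1.93e-05), and so did MMP25, a membrane-bound metalloprotease (1.37 and 1.74). HP (1.51) rose and ORM2 (−1.10), an acute-phase protein with a close paralog in the list, fell in MOLM-13, and PTX3 (2.18) and FCN1 (1.44) rose in NB4. In MOLM-13, 4 were called higher and 2 lower, but MMP9, MMP25 and HP passed the filter of 1 RPKM there only through their FP54 level, and with a filter at 5 RPKM the 6 calls became 3. Apart from MMP9, MMP25 and HP, CHI3L1 was called higher in MOLM-13 (0.58, limma adjusted p = 0.0171). ORM1 (−1.05, limma adjusted p = 0.00845) and ORM2 were called lower. In NB4, 4 were called higher and 0 lower by limma, and 1 (CHI3L1, −0.42) was lower at an unadjusted p under 0.05.

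Of 8 further eosinophil and basophil granule genes, 6 were tested in MOLM-13 and 0 were called by limma or by limma-voom, while 1 had an unadjusted p under 0.05. The count moved in 6 of 16 alternative runs, with a range from 0 to 2. Among these, 1 gene was called without DMSO replicate 1 and 2 without FP54 replicate 2. In NB4, 4 were tested and all were called: PRG2, the major basic protein (−0.65), and EPX, eosinophil peroxidase (−0.55), were lower, while the tryptase gene TPSAB1 (2.29) and HDC, histidine decarboxylase (1.64), were higher. TPSAB1 passed the filter only through its FP54 level, from 0.325 to 2.00 RPKM, and with a filter at 5 RPKM 1 of the 4 calls was left. Of 14 genes for further lysozyme-like proteins and granzymes, 1 was tested in MOLM-13 and not called, and of 2 tested in NB4 PRF1, perforin, was higher (0.63).

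Inhibitors of the granule proteases were listed as 15 genes, 8 of them tested in each line. SERPINB1, which inhibits elastase, proteinase 3 and cathepsin G inside the cell, rose in both lines, from 94.8, 92.8 and 88.8 to 149, 129 and 146 RPKM in MOLM-13 (0.61, SE 0.13, limma adjusted p = 0.0115) and from 9.68, 8.70 and 10.2 to 15.0, 15.6 and 16.3 RPKM in NB4 (0.71, SE 0.09, limma adjusted p = 0.000141). SLPI, a secreted elastase and cathepsin G inhibitor, fell in NB4 from 10.1 to 2.50 RPKM (−1.98, SE 0.14, limma adjusted p = 1.86e-06), and SERPINA1 (1.53), SERPINB8 (0.91) and CSTA (0.79) rose there. In MOLM-13, 2 genes of the list were called without any single DMSO replicate or FP54 replicate 3, and 3 without FP54 replicate 2.

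Of 20 genes that process, sort and secrete granule proteins, 19 were tested in each line. In MOLM-13, 3 were higher (the sorting receptor SORL1 at 1.59, the cathepsin CTSH at 0.99 and GNPTG at 0.88). In NB4, 3 were higher, among them RAB27A (0.90) and STXBP2 (0.76), which act in granule exocytosis. Another 2 were lower there, LYST (−0.91) and the chaperone CALR (−0.57). These NB4 counts of 19 are near the shares of all genes, 18.6% higher and 10.7% lower. At an unadjusted p under 0.05 the count was 5 genes in MOLM-13 and 12 in NB4. The 5 NB4 calls became 9 with median-ratio scaling and 3 with quantile normalization or a filter at 5 RPKM. CTSC, the protease that activates the granule serine proteases, was called in neither line (−0.10 in MOLM-13 and −0.32 in NB4). Of 22 genes for the chondroitin chain that serglycin carries, CHSY1 (−0.57) was lower and CHST7 (0.78) higher of 12 tested in MOLM-13, a count of 2 that was 0 without DMSO replicate 1, DMSO replicate 3, FP54 replicate 1 or FP54 replicate 2. In NB4, SLC26A2 (−0.55) was lower and 4 genes were higher of 15 tested, among them CHPF (1.23), CSGALNACT2 (0.97) and PAPSS1 (0.52), a count of 5 that was 3 without DMSO replicate 1 or FP54 replicate 1. Of 8 heme synthesis genes, PPOX (0.89) was higher of 6 tested in MOLM-13, lost without FP54 replicate 1, and in NB4 UROD (−0.57) was lower and FECH (0.83) higher of 8 tested, with 1 call without DMSO replicate 2 or FP54 replicate 1.

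Among 15 transcriptional regulators of granule genes, 13 were tested in MOLM-13 and 14 in NB4. CEBPE, which drives late granulocyte maturation, fell in NB4 from 22.7, 33.3 and 25.4 to 14.5, 18.1 and 14.4 RPKM (−0.78, SE 0.14, limma adjusted p = 0.00118) and was not called in MOLM-13, where its mean was 9.32 and 12.7 RPKM. The difference between the lines was −1.21 (SE 0.22, limma adjusted p = 0.00221). CEBPD was higher in MOLM-13 (0.57, SE 0.17, limma adjusted p = 0.0441) and lower in NB4 (−1.06, SE 0.13, limma adjusted p = 0.000114), and GATA2 was lower in MOLM-13 (−0.66, SE 0.20, limma adjusted p = 0.0439) and higher in NB4 (0.95, SE 0.09, limma adjusted p = 2.05e-05). CEBPB was higher in NB4 (1.5), where 3 regulators were called lower and 3 higher in all. SPI1, which encodes PU.1, was called in neither line, at 0.16 in MOLM-13 and −0.39 in NB4, though the difference of −0.56 between the lines passed (limma adjusted p = 0.0463). MYB was not called either, at −0.53 (limma adjusted p = 0.0679) in MOLM-13 and −0.50, just under the fold cutoff, in NB4 (limma adjusted p = 0.00244). In MOLM-13 the count of 2 regulators was 1 without any single DMSO replicate, 0 without FP54 replicate 1 and 5 without FP54 replicate 3.

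**Figure D5:**
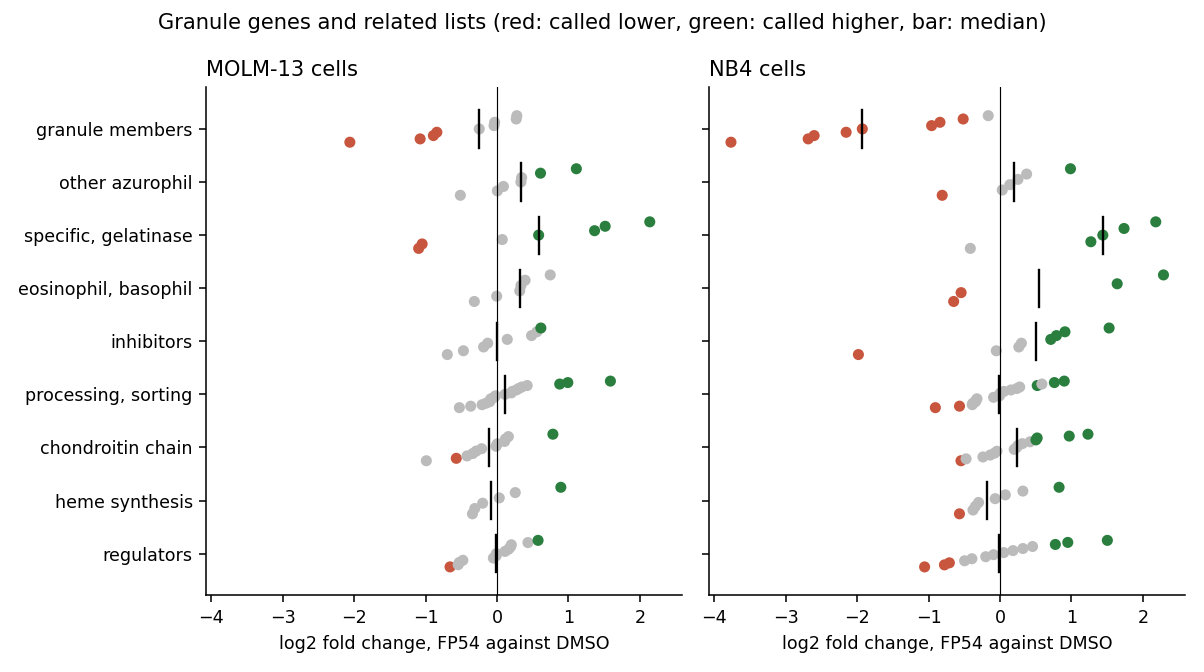
Log2 fold change of FP54 against DMSO for every tested gene of the granule members and of related lists in MOLM-13 (left) and NB4 (right), red where called lower, green where called higher, grey otherwise, with the median as a bar. In NB4 the member bar is at −1.93 over 9 genes, or −0.96 without RNASE3 and DEFA3, which passed the filter only through DMSO, and the bar of the specific and gelatinase granule genes is at 1.44.

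The genes whose level over the 12 libraries was most like that of a member were found by Pearson's r of log2(RPKM + 0.1) among 10183 genes, a measure that mostly follows the gap between the lines. For ELANE they were DNAJC15, SOCS2 and RNF139 (r = 0.998, 0.997 and 0.997), and for RNASE2 DHCR7, GLA and CITED2 (0.989, 0.989 and 0.979). DHCR7, the last enzyme of cholesterol synthesis, went from 23.4 to 13.0 RPKM in MOLM-13 and from 11.4 to 3.99 RPKM in NB4. It was picked for its likeness to RNASE2 over these same libraries, so its fall alongside RNASE2 is no separate result.

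FTO removes methyl groups from adenosine, often within GGAC, so the canonical transcripts were read for these letters. The member transcripts had a median length of 911.5 bases, against 2828 over 20329 genes, and a median of 6.04 GGAC per kb, against 3.77. RNASE2, RNASE3 and LYZ hold no GGAC, and DEFA3 has 12.1 per kb. GGAC is a sequence count, and methylation of the members was not analysed here.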

How the data were processed

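According to the authors' methods, cutadapt 4.8 trimmed the reads, Clumpify took out duplicates, STAR 2.7.11b placed what remained on hg38, and featureCounts 2.0.3 counted protein-coding GENCODE genes. The authors deposited RPKM for 20411 genes in both tables, and only its name ties the NB4 table to that line. Reads were recovered as RPKM times the GENCODE release 44 exon length, a later release than the authors' (42), and 98.2% to 98.8% of low values came out whole (within 0.02).

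In R 4.3.3, limma 3.58.1 (intensity trend, two-sided) was fitted to log2(RPKM + 0.1) for genes with a mean of at least 1 RPKM in the line, with Benjamini-Hochberg adjustment over all of them. The count test of the authors' methods was not used, since the deposited unit is not counts. Differences between lines were an interaction in a model of 12 libraries at an adjusted p below 0.05. On simulated data, a log2 change of 1.5 in 200 genes was recovered for 95.5% of them in MOLM-13 (78 false calls) and 100% in NB4 (15). At an adjusted p below 0.05 recovery was 85% and 98.5%. Smaller changes, such as those of CTSG, RNASE2 and RNASE3 in MOLM-13, were not simulated.

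The members and gene lists were chosen with earlier results of these data known. All 10 members are named, from each other list the 4 largest called changes a line, and all protein-coding genes within 50 kb of a member. CTSC, SPI1, MYB, RNASE6, RNH1, PRSS57 and ORM1 in MOLM-13, CHI3L1 in both lines and SERPINB1 in NB4 were named after their values were seen. So were the single myeloid markers. Alternatives were pseudocounts of 1 and 0.01, filters, scalings, voom, a replicate block and leaving out each library. Subtraction of the olfactory receptor level was added after seeing the data. The 10 m6A-seq and polysome-seq samples were not used here. The genes most like MPO are not reported here. Upstream sequences and starts are from RefSeq (GRCh38.p14), which matched 5 of 10 members. Python 3.11.15, scipy 1.17.1, Biopython 1.88 and matplotlib 3.10.9 were also used.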

Additional observations from a re-analysis of the deposited data

Results flagged for a closer look

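The responses of 6 members differed between the lines by limma's interaction test. NB4 minus MOLM-13 on the log2 scale was −2.69 for RNASE3, −1.71 for CTSG, −1.68 for PRTN3, −1.31 for RNASE2, −0.79 for AZU1 and 1.10 for MPO. RNASE3, with 4 to 6 reads in the treated NB4 libraries, passed the filter there only through its DMSO level. MPO, whose control level was 2170 RPKM in NB4 and 16.1 RPKM in MOLM-13, was the only member of the 6 that changed less in NB4.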

How the results depend on the processing

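MPO and CTSG in MOLM-13, and PRTN3, CTSG, RNASE2 and SRGN in NB4, were called lower in every alternative run, and so was RNASE3 in NB4 wherever it could be tested. Calls within a line go by an unadjusted limma p under 0.01 and the fold cutoff, not by the adjusted p. With no filter on low values, CTSG in MOLM-13 was called but had a limma adjusted p of 0.0888. The count of members called in MOLM-13, 4, was 2 with no filter on low values, where RNASE2 and RNASE3 were lost (limma adjusted p = 0.212 and 0.123), and 3 to 4 with a library left out. In NB4 the count was 8 and ranged from 6 to 8. AZU1 was lost there with a pseudocount of 1, and MPO with no filter (limma adjusted p = 0.0638). For the interaction the count was 6 and ranged from 5 to 7, with SRGN also called under median-ratio scaling and quantile normalization (limma adjusted p = 0.0348 and 0.0427). Values near 0 turned sign when single libraries were left out: ELANE in MOLM-13 ranged from −0.24 to 0.25, SRGN in MOLM-13 from −0.29 to 0.14, and the log2 change of MPO to SRGN in NB4 from −0.22 to 0.0094. The cause of these changes was not tested. With the olfactory receptor level subtracted, the counts were 4, 8 and 6. With the replicate number as a block they were also 4, 8 and 6. The labels do not say that a number pairs libraries, and same-numbered libraries did not deviate together (correlations of −0.26, −0.13 and −0.06 in MOLM-13 and −0.14, 0.07 and 0.12 in NB4). RNASE3 and DEFA3 could not be tested in NB4 at a filter of 5 RPKM, nor DEFA3 without some DMSO libraries. Counts of called genes in the related lists also moved, with no filter from 4 to 9 for specific and gelatinase granule genes and from 5 to 9 for inhibitors in NB4, while with median-ratio scaling the heme synthesis count in NB4 went from 2 to 4. Depth limits DEFA3, RNASE3 and ELANE in NB4, with at most 6 reads in any treated library.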
